A study of Homo sapiens with 16 samples.

Results

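The genes described here are EREG, AREG, HBEGF, TGFA, BTC, EPGN, NRG1, NRG2 and EGFR, which encode ligands of the ERBB receptors and the EGF receptor itself. They were taken by name, 9 of the 19974 protein-coding genes of the annotation, and every peak in the span of each gene with 10 kb on each side was read in all 12 peak sets. The cells were H69, an immortalised line of human cholangiocytes, the epithelium of the bile ducts. By their titles and agent labels, they received vehicle or recombinant human TGF-beta at 10 ng/ml for 16 h, and chromatin immunoprecipitation with sequencing was done for SMAD3, H3K27ac and H3K9ac. The 6 groups were SMAD3 vehicle, SMAD3 TGF-beta, H3K27ac vehicle, H3K27ac TGF-beta, H3K9ac vehicle and H3K9ac TGF-beta, each with 2 libraries, numbered 4 and 5 for SMAD3 and 1 and 2 for the marks. All groups share 1 line, and no genetic change distinguishes them. The treatment text in the labels names TGF-beta for the vehicle samples as well, so the groups rest on the titles and agent labels. Nothing states that replicates came from separate cultures, so p-values measure only the spread between these libraries, which may be technical.

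EGF receptor ligands are made as membrane-bound precursors that proteases of the ADAM family release from the cell surface. EREG (epiregulin), AREG (amphiregulin), HBEGF (heparin-binding EGF-like growth factor), TGFA (transforming growth factor alpha), BTC (betacellulin) and EPGN (epigen) bind EGFR, while the neuregulins NRG1 and NRG2 bind ERBB3 and ERBB4. Bound receptors dimerise and signal through the RAS and MAPK cascade, and in bile ducts this system is known for driving cholangiocyte growth and repair. SMAD3 is the transcription factor that TGF-beta receptors activate. H3K27ac and H3K9ac are histone marks found at active promoters, and H3K27ac also at active enhancers.

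The 250 bases before the annotated start are shown for the 5 genes on whose start-site peaks the results turn (RefSeq, build GRCh38.p14, gene strand, 5′ to 3′). They are EREG at chr4:74364895-74365144 on the plus strand, AREG at chr4:74444886-74445135 on the plus strand, HBEGF at chr5:140346604-140346853 on the minus strand, NRG2 at chr5:140043300-140043549 on the minus strand and EGFR at chr7:55018767-55019016 on the plus strand. Capitals mark letters found by a search on both strands for CAGAC (the SMAD box), TGANTCA (AP-1), TGACGTCA (the cyclic AMP response element) and TATAAA (the TATA box).
EREG: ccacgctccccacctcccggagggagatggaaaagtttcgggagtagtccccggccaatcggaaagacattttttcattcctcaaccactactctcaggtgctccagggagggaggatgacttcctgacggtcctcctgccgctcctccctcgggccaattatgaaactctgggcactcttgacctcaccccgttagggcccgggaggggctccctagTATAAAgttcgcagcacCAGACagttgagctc
AREG: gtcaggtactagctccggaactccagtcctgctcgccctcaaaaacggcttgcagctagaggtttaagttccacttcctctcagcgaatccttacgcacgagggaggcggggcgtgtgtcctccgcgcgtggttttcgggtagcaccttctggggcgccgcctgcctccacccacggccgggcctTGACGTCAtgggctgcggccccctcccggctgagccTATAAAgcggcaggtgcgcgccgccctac
HBEGF: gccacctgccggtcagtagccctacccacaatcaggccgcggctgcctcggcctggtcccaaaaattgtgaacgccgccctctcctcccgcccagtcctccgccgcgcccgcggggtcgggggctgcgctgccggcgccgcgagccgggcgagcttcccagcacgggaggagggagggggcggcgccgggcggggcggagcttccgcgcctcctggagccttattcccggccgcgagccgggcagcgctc
NRG2: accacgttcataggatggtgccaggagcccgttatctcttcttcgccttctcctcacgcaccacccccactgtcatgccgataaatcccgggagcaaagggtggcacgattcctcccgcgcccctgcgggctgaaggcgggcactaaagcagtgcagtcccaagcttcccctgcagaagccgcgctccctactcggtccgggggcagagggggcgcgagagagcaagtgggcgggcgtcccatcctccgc
EGFR: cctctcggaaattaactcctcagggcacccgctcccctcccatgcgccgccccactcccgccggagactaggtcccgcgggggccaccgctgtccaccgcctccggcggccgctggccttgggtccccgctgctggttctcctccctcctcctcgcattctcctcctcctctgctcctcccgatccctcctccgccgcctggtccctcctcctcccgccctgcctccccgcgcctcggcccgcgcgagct
EREG held TATAAA at bases 32 to 27 and CAGAC at bases 15 to 11 before its start. AREG held TGACGTCA at bases 65 to 58 and TATAAA at bases 29 to 24. The printed windows of HBEGF, NRG2 and EGFR held none of the 4 motifs, which says only that these letters are not in these bases. NRG2 and EGFR each have a further promoter entry inside the gene, not printed, and there the search found the SMAD box at NRG2 and the SMAD box, AP-1 and TATA box letters at EGFR. Neither of these further windows lay in a peak of any target in any of the 12 libraries. Of 34961 RefSeq promoters read over the same 250 bases, 38% held CAGAC on either strand, 6.54% TGANTCA, 1.65% TGACGTCA and 10.7% TATAAA. The G and C content was 58% in EREG, 65.2% in AREG, 76.4% in HBEGF, 65.2% in NRG2 and 73.6% in EGFR. Of the 9 genes, 8 matched an entry of the promoter table.

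The quantity followed was the length covered by peaks in each gene's window, in kb. It describes how much chromatin passed the authors' peak caller, not how much RNA or protein was made. The peak sets held 22451 to 34413 peaks in SMAD3, 82259 to 92714 in H3K27ac and 54682 to 61297 in H3K9ac, and they give no read counts, so depth is unknown. SMAD3 libraries with TGF-beta were larger than those with vehicle, and the median length per gene was shifted by 0.31 on the log2 scale in SMAD3, 0.09 in H3K27ac and -0.09 in H3K9ac. Log2 changes below are therefore TGF-beta minus vehicle of log2(length + 500 bp) after each library was centred on its median, so they are changes relative to that shift. They were tested with limma with Benjamini-Hochberg adjustment over all genes whose mean length reached 500 bp, and a gene rose or fell where the adjusted p was under 0.05. Of the 8 acetylation libraries, TGF-beta replicate 2 of each mark ran on lane 8 and the rest on lane 7. For a single mark, a value without that library is therefore a value within 1 lane. In comparisons between the marks, leaving out 1 of these libraries keeps the other on lane 8. All SMAD3 libraries were on lane 8. Marker genes were read for a peak within 1 kb of the gene start, or of either end where no strand was given. Of the cholangiocyte markers, KRT7, KRT19, EPCAM and SOX9 had such a peak in every vehicle library of both marks, and CFTR, SPP1 and CLDN4 did not. The same held for 3 of 6 hepatocyte markers, 2 of 6 mesenchymal markers, 0 or 1 of 4 endothelial markers and 1 or 2 of 5 leukocyte markers.

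Peaks were unevenly spread over the family. With vehicle, H3K27ac covered 17.4% of the EREG window (mean of 2 libraries, 16.8% and 18.1%), 17.2% of the AREG window, 12.7% of the EGFR window and 11.1% of the HBEGF window. The share was 4.12% in TGFA, 1.23% in NRG2, 0.846% in NRG1 and 0.504% in BTC. EREG and AREG overlapped in their libraries, and all other neighbours in this order stood apart. EPGN, at chr4:74308470-74316789, had no peak of any target in any of the 12 libraries, in a window that also reaches the end of MTHFD2L. With TGF-beta the order of H3K27ac was HBEGF at 16.4%, EGFR at 15.9%, AREG at 15.2% and EREG at 14.4%, and each of these overlapped the next. TGFA at 3.51% and then NRG1 at 1.52% followed, each apart from its neighbours, above BTC at 0.364% and NRG2 at 0.252%, which overlapped. In SMAD3, the vehicle order began with AREG at 2.42% and 2.58%, HBEGF at a mean of 1.94% and EREG at 1.27%, each overlapping the next, and with TGF-beta HBEGF at 3.49% stood above AREG at 2.58% and EGFR at 1.41%. In H3K9ac, AREG, HBEGF and EREG were the 3 highest under either treatment, with each overlapping the next. The plot of peak length per library shows these values in kb.

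**Figure D1:**
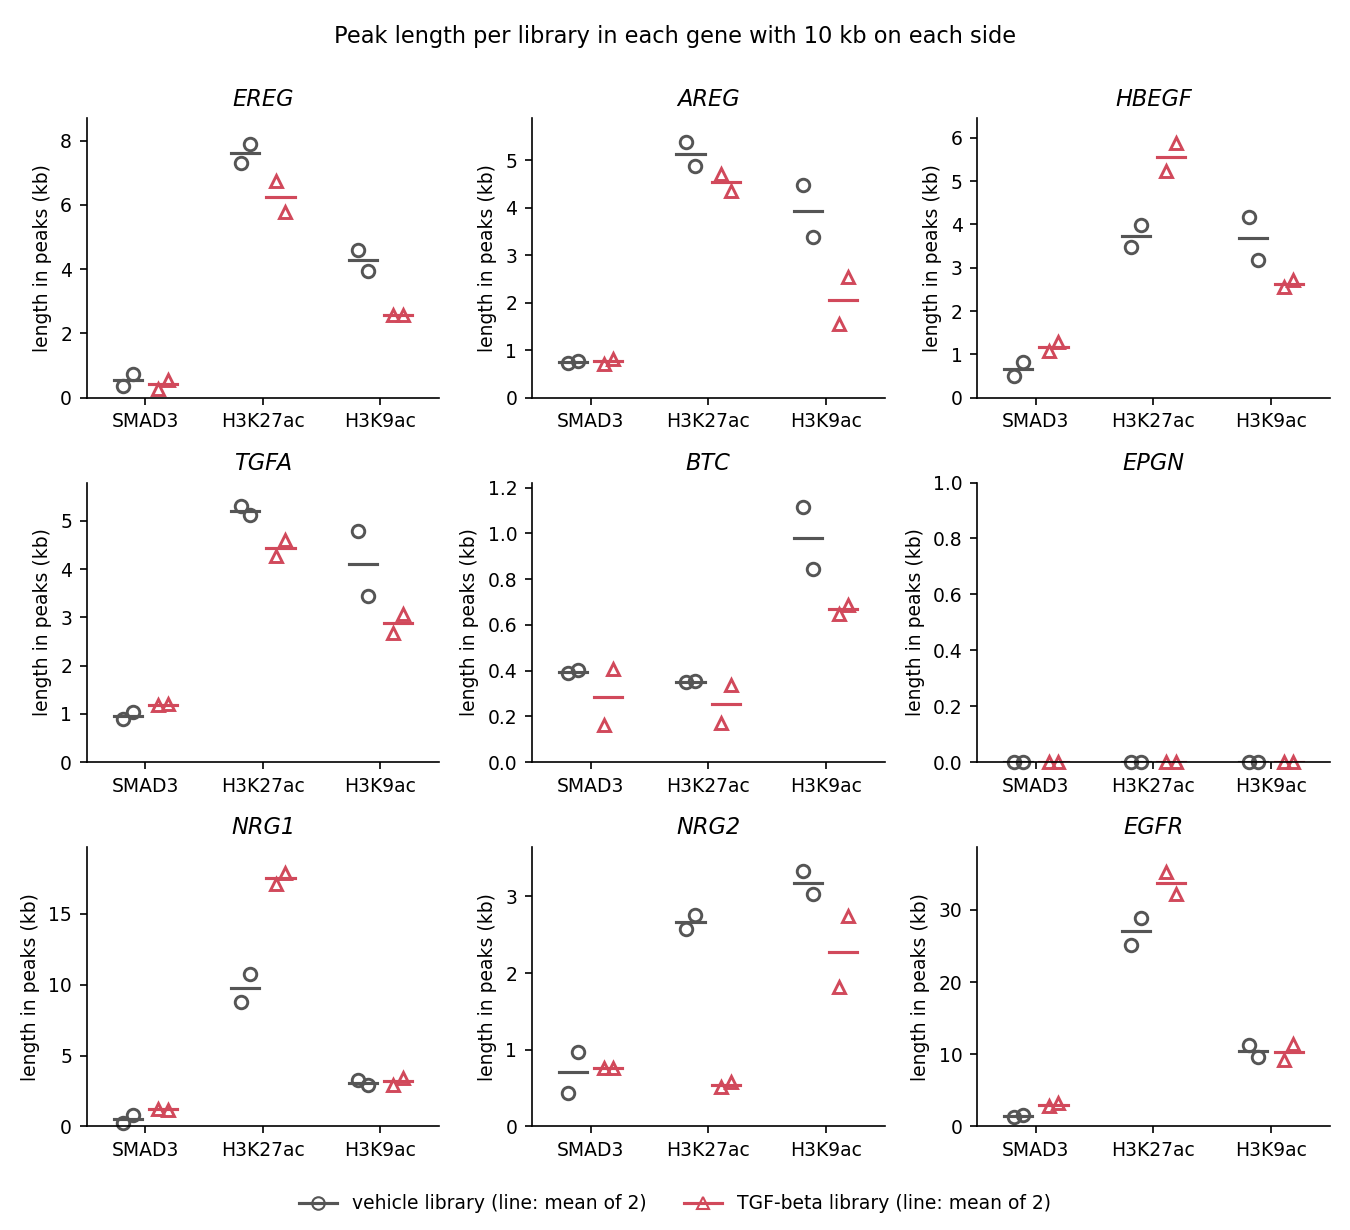
Length covered by peaks (kb, each panel on its own axis from 0) in the span of each gene with 10 kb on each side. Circles are vehicle libraries, triangles TGF-beta libraries and lines their means (n = 2). NRG2 has 2.58 and 2.76 kb of H3K27ac with vehicle and 0.515 and 0.578 kb with TGF-beta, and NRG1 goes from 8.77 and 10.8 kb to 17.1 and 17.9 kb.

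EREG, AREG and BTC, 3 of the ligands encoded side by side on chromosome 4, had less H3K9ac in the TGF-beta libraries than in the vehicle libraries. EREG (chr4:74365145-74388749) had 4.61 and 3.94 kb of H3K9ac with vehicle and 2.56 and 2.58 kb with TGF-beta. The groups did not overlap, and EREG fell by 0.54 ± 0.0822 on the log2 scale (SE, limma adjusted p = 0.00777). This call held under all 14 other settings tried, leaving out each library among them, and within 1 lane the log2 change was -0.48 (limma adjusted p = 0.0354). AREG (chr4:74445136-74455005) had 4.47 and 3.37 kb with vehicle and 1.54 and 2.55 kb with TGF-beta. Its groups did not overlap either, and it fell by 0.72 ± 0.153 on the log2 scale (limma adjusted p = 0.0281). The AREG call was lost under 4 of 14 other settings, with a pseudocount of 100 bp (limma adjusted p = 0.0652), with no filter on length (0.0659), without centring (0.0759) and without TGF-beta replicate 1 (log2 change -0.50, limma adjusted p = 0.0879), which had the shortest length, while within 1 lane the log2 change was -0.95 (limma adjusted p = 0.00373). BTC (chr4:74744759-74794523) had 1.12 and 0.843 kb with vehicle and 0.648 and 0.686 kb with TGF-beta, a log2 change of -0.25 that did not pass (limma adjusted p = 0.134).

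Of the 9 genes, EREG and AREG fell in H3K9ac and none rose, out of 8 tested. Over all 14605 genes tested, 9.47% passed, with 5.28% falling and 4.19% rising. The median log2 change was -0.32 over the 8 genes and 0.00 over all genes. In uncentred length, both TGF-beta libraries lay below both vehicle libraries in 6 of the 8 genes, against 40.9% of all genes tested, and they lay above in none, against 9.4%. HBEGF, TGFA, BTC and NRG2 were the other 4, and NRG1 and EGFR overlapped.

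The H3K9ac of EREG and AREG was shorter at specific places. At AREG, the region over the start (chr4:74444183-74446005) was 1823 and 1515 bp long with vehicle and 1336 and 1279 bp with TGF-beta. The next region inside the gene (chr4:74446078-74448288) was 2183 and 1857 bp with vehicle and 208 and 981 bp with TGF-beta, while H3K27ac over nearly the same bases (chr4:74446095-74448361) was 2148 and 2044 bp with vehicle and 1873 and 1903 bp with TGF-beta. At EREG, the start region of H3K9ac (chr4:74363971-74367020) was 3050 and 2870 bp with vehicle and 2203 and 2190 bp with TGF-beta. A further region 11.5 kb into EREG (chr4:74376512-74376800) was called at 281 and 202 bp in the vehicle libraries and in neither TGF-beta library. The 250 bases before the start of both genes, printed above, lay wholly inside H3K27ac and H3K9ac peaks in all 8 libraries of these marks, so the differences lay outside those bases.

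Of these ligands, EREG also passed in H3K27ac. It had 7.31 and 7.91 kb of H3K27ac with vehicle and 6.74 and 5.78 kb with TGF-beta. EREG fell by 0.35 ± 0.0873 on the log2 scale (limma adjusted p = 0.0282), and leaving out either vehicle library or TGF-beta replicate 2 ended the call (limma adjusted p = 0.0626, 0.0929 and 0.165). AREG had 5.37 and 4.88 kb with vehicle and 4.72 and 4.36 kb with TGF-beta, a log2 change of -0.24 that did not pass (limma adjusted p = 0.0999). A treatment by mark term tested whether the marks changed unequally, and neither EREG (limma adjusted p = 0.406) nor AREG (0.207) passed. This term treats all libraries as independent. Same-numbered libraries of the marks may come from the same cells, which is not stated, and such a pairing was not modelled. SMAD3 sat at the start of each of these 3 genes in all 4 libraries. At AREG it covered 0.722 and 0.771 kb with vehicle and 0.718 and 0.822 kb with TGF-beta, and the groups overlapped (log2 change -0.28, limma adjusted p = 0.175). At EREG it covered 0.364 and 0.740 kb with vehicle and 0.280 and 0.564 kb with TGF-beta, and at BTC 0.388 and 0.403 kb with vehicle and 0.161 and 0.406 kb with TGF-beta. Both genes overlapped between groups and were under the length needed for the test. BTC was also too short for the test in H3K27ac, with 0.348 and 0.355 kb with vehicle and 0.172 and 0.336 kb with TGF-beta.

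The intervals between these genes were read as well. Across the 506 kb from the EPGN window to the BTC window (chr4:74298470-74804523), H3K9ac covered 16.5 and 11.9 kb with vehicle and 6.60 and 8.38 kb with TGF-beta, and the groups did not overlap. In the 270 kb between AREG and BTC it covered 5.20 and 3.46 kb with vehicle and 1.85 and 2.40 kb with TGF-beta. H3K27ac over the whole interval was 31.6 and 35.1 kb with vehicle and 30.1 and 26.7 kb with TGF-beta, again without overlap. An exact permutation test of 2 against 2 libraries cannot go below 0.333, so these sums carry no p. They are also not centred. In gene windows, uncentred TGF-beta lengths lay below both vehicle libraries in 40.9% of genes tested in H3K9ac and 20.9% in H3K27ac. No such share was computed for intervals of this length. SMAD3 had no peak between the gene windows in any library, and EPGN with the 28.4 kb between it and EREG had no peak of any target. Of 29 H3K9ac regions in the interval 3 were lost and none gained, against 6.15% and 5.15% of all H3K9ac regions. Of 66 H3K27ac regions 6 were lost and 2 gained, against 4.72% and 12% of all H3K27ac regions. Of the lost H3K27ac regions, 5 lay between AREG and BTC, where the mark covered 15.8 and 19.3 kb with vehicle and 15.4 and 13.2 kb with TGF-beta. Lost here means called in both vehicle libraries and without a peak under TGF-beta, and gained the reverse.

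**Figure D2:**
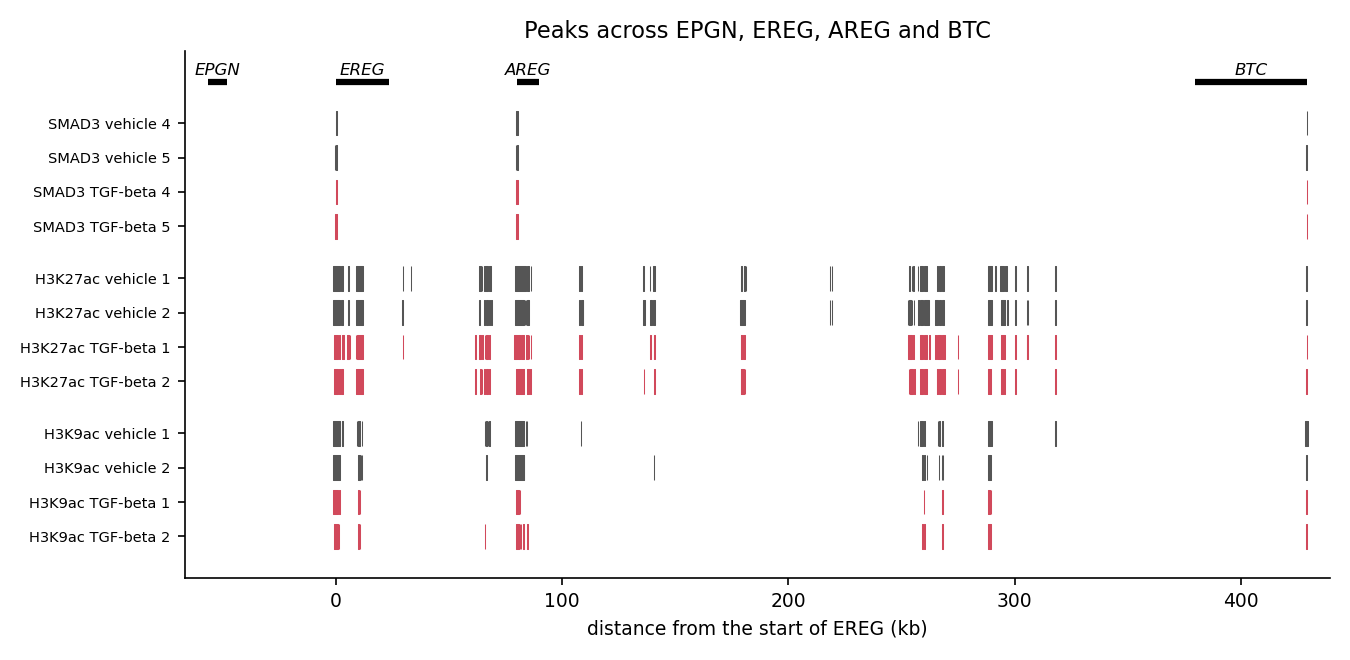
Peaks of each library (lines, grey vehicle, red TGF-beta) over EPGN, EREG, AREG and BTC, with distance from the EREG start in kb on the horizontal axis and genes as black bars. H3K9ac covers 16.5 and 11.9 kb in the vehicle lines and 6.60 and 8.38 kb in the TGF-beta lines, and no line has a peak at EPGN.

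HBEGF (chr5:140332843-140346603, minus strand), whose product also serves as the diphtheria toxin receptor, had more H3K27ac with TGF-beta. It covered 3.48 and 3.99 kb with vehicle and 5.23 and 5.88 kb with TGF-beta, and the groups did not overlap. HBEGF rose by 0.43 ± 0.0933 on the log2 scale (limma adjusted p = 0.0172), and the call was lost without vehicle replicate 1 (limma adjusted p = 0.0645) or TGF-beta replicate 2 (log2 change 0.34 within 1 lane, limma adjusted p = 0.107). With 2.5 kb on each side in place of 10 kb, which leaves out a long H3K27ac region beyond the end of the gene, the log2 change was 1.00 (limma adjusted p = 0.00350). H3K9ac at HBEGF did not pass and lay on the other side of 0. It covered 4.17 and 3.18 kb with vehicle and 2.56 and 2.71 kb with TGF-beta (log2 change -0.31, limma adjusted p = 0.0956). The marks differed in their change by 0.74 ± 0.141 on the log2 scale (limma adjusted p = 0.0122 for the treatment by mark term), and without TGF-beta replicate 2 of H3K27ac the adjusted p was 0.0501.

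Much of the added H3K27ac at HBEGF lay inside the gene. Regions at chr5:140339422-140340058, chr5:140338706-140339364 and chr5:140337824-140338160, 6.86, 7.57 and 8.61 kb from the start, had peaks in both libraries with TGF-beta and no peak with vehicle. Merging peaks less than 500 bp apart left 1 such gained region. Without TGF-beta replicate 1 there were 5, but a peak in the 1 remaining TGF-beta library then suffices. The 3 regions were 376 and 637 bp, 541 and 659 bp, and 337 and 225 bp long in the 2 TGF-beta libraries. None of them met a SMAD3 or an H3K9ac peak in both libraries of a treatment. At the start itself, H3K27ac (chr5:140345584-140347261) was 1012 and 1129 bp long with vehicle and 1479 and 1540 bp with TGF-beta. Of the 250 bases printed for HBEGF, 0 lay in H3K27ac peaks in either vehicle library, and 250 and 235 did in the TGF-beta libraries. SMAD3 at the start (chr5:140345891-140346819) was 491 and 559 bp long with vehicle and 838 and 928 bp with TGF-beta. Over the whole window SMAD3 covered 0.491 and 0.820 kb with vehicle and 1.08 and 1.28 kb with TGF-beta. The groups did not overlap, but once centred the log2 change of 0.24 did not pass (limma adjusted p = 0.250). Beyond the window, SLC4A9 lies 3.59 kb away on the side of the HBEGF start. PFDN1 lies 19.7 kb away on the side of the HBEGF end, where the long H3K27ac region is. Which gene the peaks beyond HBEGF act on is not given by these data.

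TGFA (chr2:70447284-70553826, minus strand) had 5.30 and 5.13 kb of H3K27ac with vehicle and 4.28 and 4.61 kb with TGF-beta. It fell by 0.30 ± 0.0856 on the log2 scale (limma adjusted p = 0.0474), a call that 12 of 14 other settings took away, among them leaving out any 1 of the 4 libraries (limma adjusted p = 0.0638 to 0.230). The difference lay inside the gene rather than at its start. Around 29.7 kb from the start (chr2:70523117-70525170), H3K27ac was 1889 and 2040 bp long with vehicle and 1341 and 1588 bp with TGF-beta, and at the start (chr2:70552807-70555068) it was 2119 and 1991 bp against 2129 and 2077 bp. In H3K9ac, TGFA covered 4.78 and 3.44 kb with vehicle and 2.67 and 3.08 kb with TGF-beta, with a log2 change of -0.35 that did not pass (limma adjusted p = 0.104; 0.0114 without vehicle replicate 2). SMAD3 at TGFA covered 0.888 and 1.03 kb with vehicle and 1.176 and 1.203 kb with TGF-beta (log2 change -0.09, limma adjusted p = 0.618).

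The 2 neuregulins moved in opposite directions in H3K27ac. NRG1 (chr8:31639245-32774046) had 8.77 and 10.8 kb with vehicle and 17.1 and 17.9 kb with TGF-beta. The groups were far apart, and NRG1 rose by 0.73 ± 0.0968 on the log2 scale (limma adjusted p = 0.00252). NRG2 (chr5:139846781-140043299, minus strand) had 2.58 and 2.76 kb with vehicle and 0.515 and 0.578 kb with TGF-beta, and it fell by 1.68 ± 0.0789 (limma adjusted p = 7.83e-05). Both calls held under all 14 other settings, with log2 changes from 0.63 to 0.84 for NRG1 and from -2.20 (pseudocount of 100 bp) to -0.93 (2000 bp) for NRG2. Within 1 lane the log2 changes were 0.69 (limma adjusted p = 0.0240) and -1.74 (0.00145). H3K9ac did not pass in either gene. NRG1 covered 3.28 and 2.89 kb with vehicle and 2.91 and 3.45 kb with TGF-beta (log2 change 0.13, limma adjusted p = 0.377). NRG2 covered 3.33 and 3.03 kb with vehicle and 1.82 and 2.74 kb with TGF-beta (log2 change -0.33, limma adjusted p = 0.138), and passed without TGF-beta replicate 2 (-0.51, limma adjusted p = 0.0239). The marks differed in their change by 0.61 ± 0.124 at NRG1 (limma adjusted p = 0.0169) and by -1.35 ± 0.153 at NRG2 (0.00139). The NRG1 difference was lost without H3K27ac TGF-beta replicate 2, H3K9ac vehicle replicate 1 or H3K9ac TGF-beta replicate 1 (limma adjusted p = 0.0659, 0.0590 and 0.0752), and that of NRG2 was kept with each library left out. HBEGF, NRG1 and NRG2 were 3 of 7 tested genes of the family whose marks differed, against 7.58% of 13600 genes. The difference, H3K27ac change minus H3K9ac change, was above 0 in 5.71% of genes and below 0 in 1.88%, the side of NRG2.

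Over the family in H3K27ac, HBEGF and NRG1 rose and EREG, TGFA and NRG2 fell, 5 of 7 tested. Of 13994 genes tested, 26.2% passed, 14.8% upward and 11.4% downward. In uncentred length, both TGF-beta libraries lay above both vehicle libraries in 3 of the 7, against 40.7% of all genes tested, and below in 4, against 20.9%. The median log2 change was -0.24 over the 7 genes and -0.03 over all genes. The plot of log2 changes sets the 3 targets side by side.

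**Figure D3:**
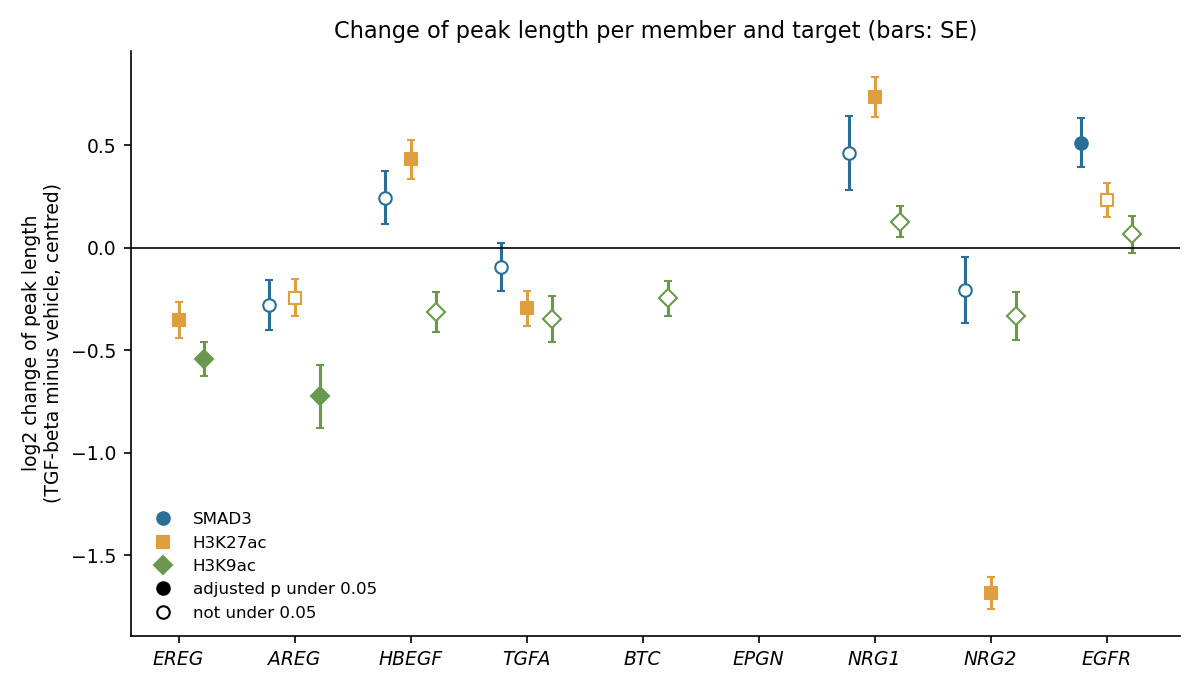
Log2 change of peak length (TGF-beta minus vehicle, centred) for each gene, with bars of 1 SE. Circles are SMAD3, squares H3K27ac and diamonds H3K9ac, filled where the limma adjusted p was under 0.05. Genes too short for the test have no point, NRG2 lies at -1.68 in H3K27ac and NRG1 at 0.73.

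At the start of NRG2, H3K27ac was shorter with TGF-beta and a SMAD3 region was lost. The H3K27ac region there (chr5:140041003-140043368) was 2286 and 2364 bp long with vehicle and 515 and 578 bp with TGF-beta. A SMAD3 region over the start (chr5:140042812-140043388) was called at 250 and 577 bp in the vehicle libraries and in neither TGF-beta library. It was the 1 SMAD3 region of the family lost in this way, and 0.669% of the 38390 SMAD3 regions were lost. Its scores lay at percentiles 30 and 27.8 of their libraries. Of the 250 bases printed for NRG2, SMAD3 peaks held 64 and 89 with vehicle and 0 with TGF-beta, H3K27ac peaks 69 and 164 with vehicle and 0 with TGF-beta, and H3K9ac peaks all 250 with vehicle and 0 and 151 with TGF-beta. H3K9ac over the start (chr5:140041329-140043808) was 2290 and 2265 bp long with vehicle and 985 and 1763 bp with TGF-beta, so it stayed called in all 4 libraries. Near the other end of NRG2 (chr5:139847999-139848599), SMAD3 was 0 and 191 bp long with vehicle and 600 and 587 bp with TGF-beta, 1.22 kb inside the lower end of the gene. PSD2 also overlaps the NRG2 window. A SMAD3 region 1.3 kb from the NRG2 start (chr5:140041819-140042111) was 191 and 201 bp long with vehicle and 161 and 0 bp with TGF-beta. Another, at chr5:139849281-139849452, was called only in TGF-beta replicate 5, at 172 bp. Over the whole NRG2 window SMAD3 covered 0.441 and 0.969 kb with vehicle and 0.761 and 0.759 kb with TGF-beta, and the groups overlapped (log2 change -0.21, limma adjusted p = 0.406).

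**Figure D4:**
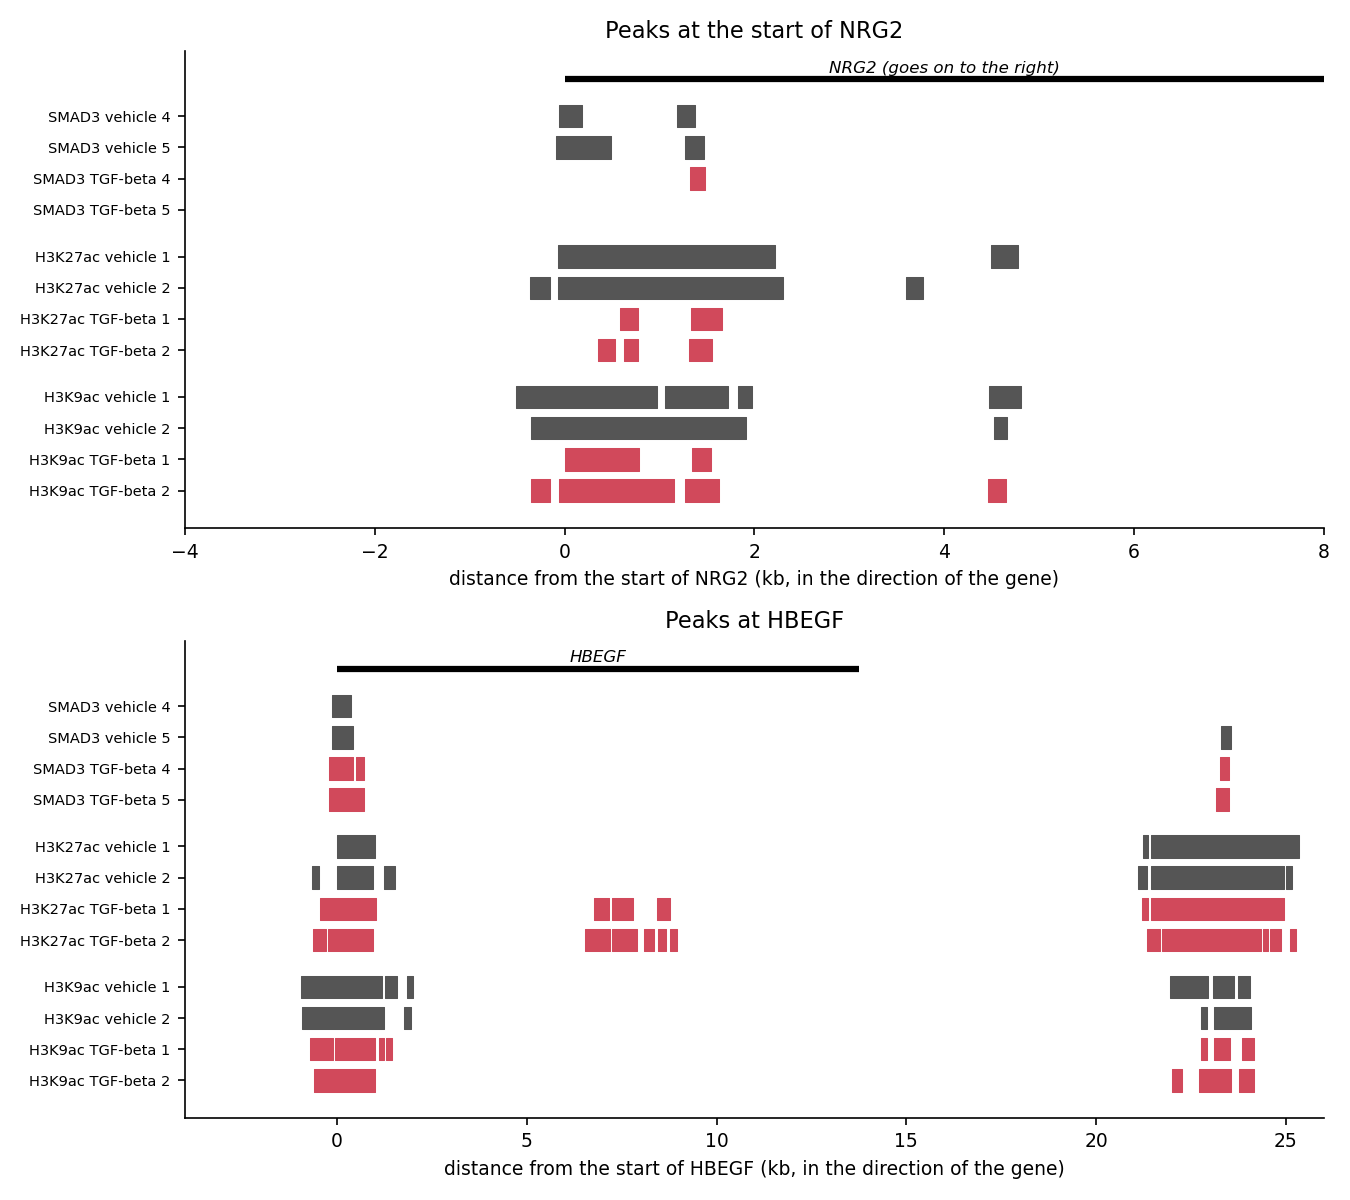
Peaks of each library (lines, grey vehicle, red TGF-beta) at the start of NRG2 and over HBEGF, with distance from the start in kb in the direction of the gene on the horizontal axis. At NRG2, H3K27ac goes from 2286 and 2364 bp to 515 and 578 bp and the SMAD3 peak over the start is absent from both TGF-beta lines, and at HBEGF red H3K27ac peaks between 6.86 and 8.61 kb have no grey counterpart.

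NRG1 differed in form. Its gained H3K27ac was split among many short regions along a gene of 1135 kb. Of its 40 H3K27ac regions, 16 were gained, 1 lost, 14 called in all 4 libraries and 9 mixed. Gained regions made up 40% at NRG1 and 12% of all 104387 H3K27ac regions. They were 156 to 711 bp long, with a median of 359 bp, and all lay inside the gene. They stood 116 to 692.6 kb and 1047 to 1076 kb from the lower end of the gene, with 3 of them between chr8:32330448 and chr8:32332513. The count was 8 when peaks less than 500 bp apart were merged, 11 with peaks scoring at least 5 and 12 with equal numbers of peaks per library. A region called in all 4 libraries also lengthened, at chr8:32268564-32270500, from 559 and 554 bp to 1605 and 1874 bp. None of the 16 gained regions met SMAD3 in both TGF-beta libraries, and 1 met H3K9ac, at chr8:32686262-32686714. Genome-wide, 3.78% of 12498 gained H3K27ac regions met SMAD3 and 10.4% met H3K9ac in both TGF-beta libraries.

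SMAD3 at NRG1 had 2 regions about 909 kb from the lower end. The region at chr8:32547825-32548114 was called in all 4 libraries, and the adjoining one at chr8:32548142-32549162 was 0 and 568 bp long with vehicle and 1021 and 976 bp with TGF-beta. H3K9ac spanned both (chr8:32546989-32549626) at 2310 and 2558 bp with vehicle and 2253 and 2281 bp with TGF-beta. Over NRG1, SMAD3 covered 0.272 and 0.801 kb with vehicle and 1.22 and 1.19 kb with TGF-beta. The groups did not overlap, and the log2 change of 0.46 ± 0.179 did not pass (limma adjusted p = 0.136), while without vehicle replicate 5, the longer of the vehicle libraries, it was 0.74 (limma adjusted p = 0.0180). The window of NRG1 also overlaps LOC128092250.

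EGFR (chr7:55019017-55211628), the receptor that the EGF-like ligands share, gained SMAD3. It covered 1.38 and 1.60 kb with vehicle and 2.79 and 3.23 kb with TGF-beta, without overlap. EGFR rose by 0.51 ± 0.121 on the log2 scale (limma adjusted p = 0.0289), and 12.6% of 12508 genes passed in SMAD3, 11.2% upward and 1.41% downward. It was the 1 gene of the 6 tested that passed, and the medians were 0.08 over the 6 and -0.01 over all genes. The call was lost with any 1 of the 4 libraries left out, at log2 changes of 0.44 to 0.58 and limma adjusted p of 0.0606 to 0.134. Without centring the log2 change was 0.82. In uncentred length, EGFR, HBEGF, NRG1 and TGFA had both TGF-beta libraries above both vehicle libraries, 4 of 6, against 68.9% of all genes tested. None had both below, against 1.81%.

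The SMAD3 of EGFR lay mainly in 2 places. Over the start (chr7:55018439-55020632) it was 1051 and 1392 bp long with vehicle and 1946 and 1897 bp with TGF-beta. Inside the gene, 114.5 kb from the start (chr7:55133040-55133938), it was 325 and 207 bp long with vehicle and 839 and 835 bp with TGF-beta, and its score rank moved from percentiles 16.7 and 25.8 to 73.4 and 65.7 of the respective libraries. Ranks come from libraries with different numbers of peaks and show no change by themselves. Both places met H3K27ac and H3K9ac peaks in both libraries of each treatment. The 250 bases printed for EGFR lay wholly inside peaks of all 3 targets in all 12 libraries.

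H3K27ac at EGFR covered 25.2 and 28.9 kb with vehicle and 35.2 and 32.3 kb with TGF-beta. The groups did not overlap, but the log2 change of 0.23 ± 0.0842 did not pass (limma adjusted p = 0.0919). It passed with a pseudocount of 2000 bp (limma adjusted p = 0.0211) and with limma's trend and robust options (0.0125). Of 51 H3K27ac regions at EGFR, 9 were gained and 1 was lost, against 12% and 4.72% of all H3K27ac regions. The longest gained regions were chr7:55032358-55034404, at 1768 and 2014 bp in the TGF-beta libraries, chr7:55186551-55187733, at 1138 and 1097 bp, and chr7:55031153-55032223, at 1043 and 811 bp. They stood 14.4, 168.1 and 12.7 kb from the start. The number gained was 3 when peaks less than 500 bp apart were merged. It was 18 without TGF-beta replicate 2, where a peak in the 1 remaining TGF-beta library suffices. None of the 9 met SMAD3 in both TGF-beta libraries. The gained regions at chr7:55186551-55187733 and chr7:55187746-55188087 lie within EGFR-AS1, a long non-coding RNA gene annotated at chr7:55179750-55188949. H3K9ac at EGFR covered 11.2 and 9.65 kb with vehicle and 9.15 and 11.4 kb with TGF-beta, and the groups overlapped (log2 change 0.06, limma adjusted p = 0.730). Of 22 H3K9ac regions at EGFR, 3 were gained and 2 lost, against 5.15% and 6.15% of all H3K9ac regions. The gained one at chr7:55032420-55032608 lies inside a gained H3K27ac region.

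**Figure D5:**
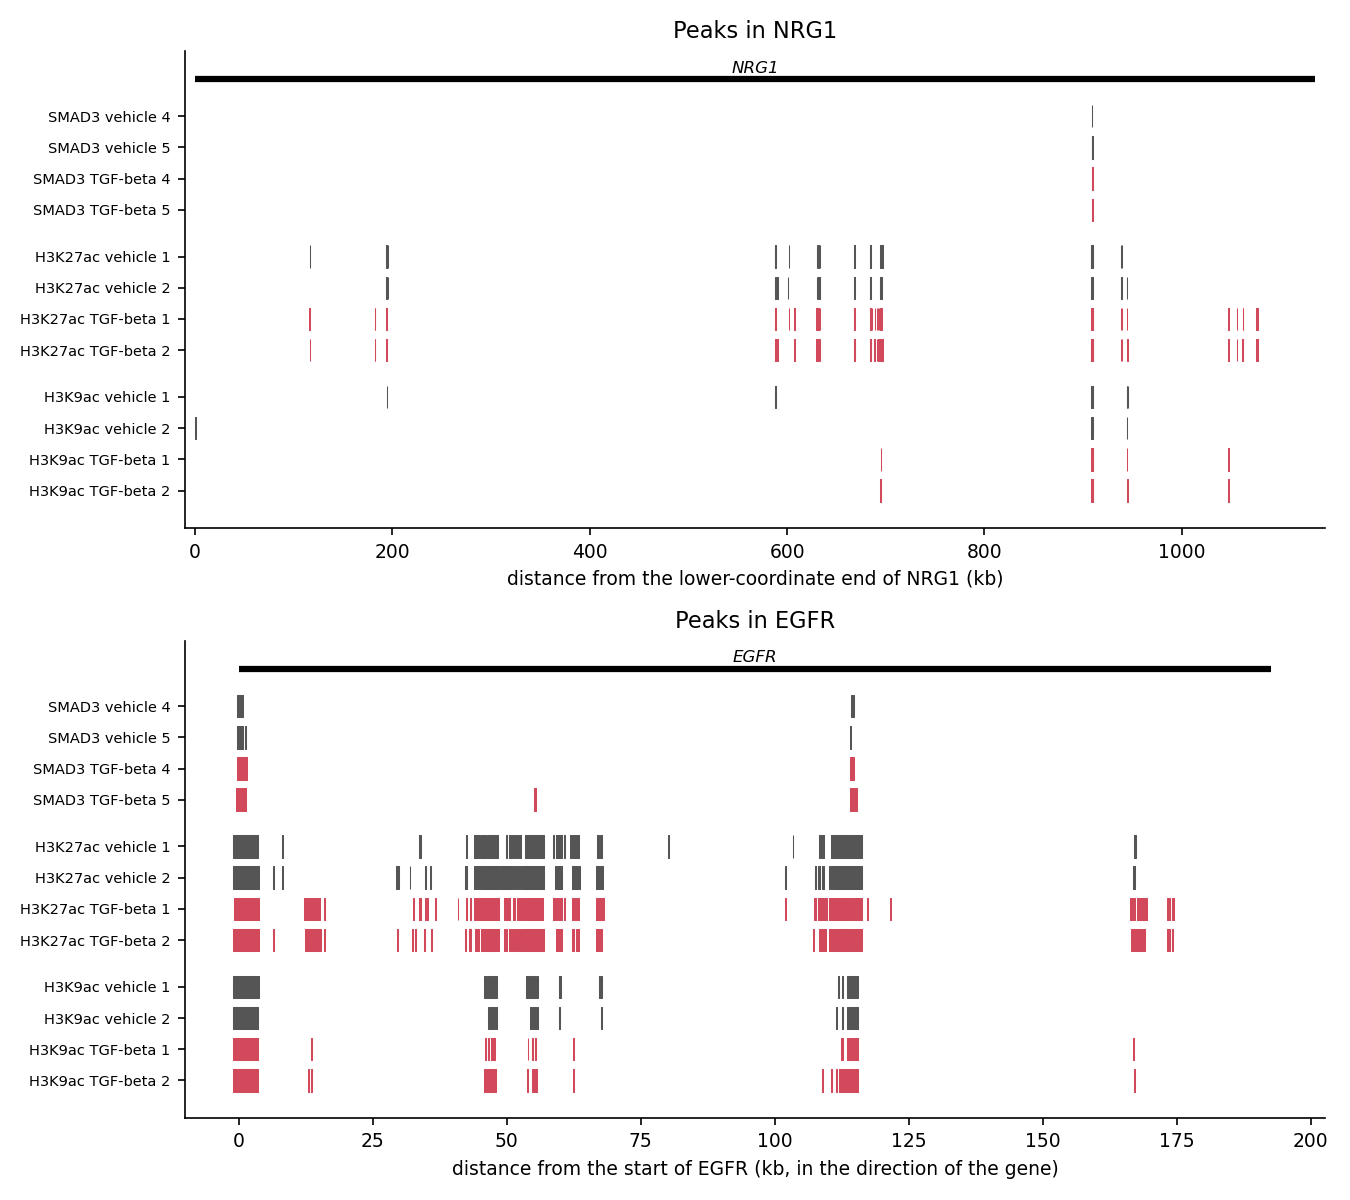
Peaks of each library (lines, grey vehicle, red TGF-beta) over NRG1, with distance from its lower-coordinate end in kb, and over EGFR, with distance from its start in kb. At NRG1, 16 H3K27ac regions are present only in both red lines, and at EGFR the SMAD3 peak 114.5 kb from the start goes from 325 and 207 bp to 839 and 835 bp.

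Of 18 SMAD3 regions, 15 met H3K27ac and 17 met H3K9ac in both TGF-beta libraries, against 73.7% and 72.1% of all 38390 SMAD3 regions. None of the 18 was gained and 1 was lost, while 8 were called in all 4 libraries, against 41.7% of all SMAD3 regions, and 9 were mixed. The count of gained regions became 3 without vehicle replicate 5, 4 without TGF-beta replicate 4 and 1 without TGF-beta replicate 5. Leaving out a library loosens the definition, as its group then needs only 1 library to fit, so counts can rise for that reason alone. Over the genome, 13.7% of SMAD3 regions were gained, and 66.6% of those met H3K27ac in both TGF-beta libraries. In H3K27ac, 28 of the family's 126 regions were gained, all at NRG1, EGFR and HBEGF, and 3 were lost, 1 each at AREG, NRG1 and EGFR, while 44 were called in all 4 libraries. Of all H3K27ac regions, 12% were gained, 4.72% lost and 41.9% called in all 4. In H3K9ac, 5 of 57 regions were gained and 5 lost, against 5.15% and 6.15% of all H3K9ac regions, and 22 were called in all 4 libraries, against 49.8%.

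Other genes of the pathway were read from lists of 58 genes. In SMAD3, 8 of 51 measured genes rose and none fell, against 11.2% and 1.41% of all genes tested. Of the shedding and trafficking genes, 4 of 8 measured rose: ADAM9 and ADAM12, which encode membrane proteases, and RHBDF1 and RHBDF2, which encode inactive rhomboid proteins that traffic ADAM17. ADAM12 reached the length needed for the test only through its TGF-beta libraries. RHBDF2 had 1.51 and 1.94 kb with vehicle and 6.38 and 5.53 kb with TGF-beta (log2 change 1.23 ± 0.130, limma adjusted p = 0.000891), and that call held with each library left out. ADAM9 lost its call with any 1 library left out (limma adjusted p = 0.0717 to 0.176), as did RHBDF1 (0.0561 to 0.239). Of the MAPK targets, 3 of 9 rose. PHLDA1 went from 1.01 and 1.57 kb to 5.48 and 4.88 kb (log2 change 1.38 ± 0.140, limma adjusted p = 0.000746), and IER3 lost its call without 3 of the 4 libraries and lay at -0.06 with windows of 2.5 kb. ETV4, an ETS transcription factor, had no SMAD3 peak in either vehicle library and covered 1.10 and 1.25 kb with TGF-beta (limma adjusted p = 0.000425). It reached the length needed for the test only through its TGF-beta libraries, so this p is no independent support. Its log2 change was 1.44, and 0.50 to 3.27 over the 11 other settings in which it was tested. None of 16 adaptors and kinases passed, and 1 of 16 feedback inhibitors did, SPRED3. The SPRED3 call was lost under 8 of 14 other settings, among them leaving out vehicle replicate 4 or TGF-beta replicate 5. The count of 8 became 3 to 5 without vehicle replicate 4, TGF-beta replicate 4 or TGF-beta replicate 5.

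In H3K27ac, 3 of 54 measured pathway genes rose and 4 fell, against 14.8% and 11.4% of all genes tested. In H3K9ac, 3 of 56 rose and 3 fell, against 4.19% and 5.28%. ADAM12 rose in all 3 targets. In SMAD3 its vehicle mean of 0.432 kb was under the length needed for the test. It reached that length only through its TGF-beta libraries, so its SMAD3 p is no independent support. Its H3K27ac went from 4.19 and 4.81 kb to 14.4 and 14.9 kb (log2 change 1.52 ± 0.0813, limma adjusted p = 0.000117), its H3K9ac from 2.64 and 2.55 kb to 4.44 and 5.60 kb (0.92 ± 0.0867, 0.00115), and its SMAD3 from 0 and 0.864 kb to 2.20 and 2.21 kb (1.41 ± 0.331, 0.0285). Without SMAD3 vehicle replicate 4, the library at 0, the last of these was 0.79 (limma adjusted p = 0.0274). The SMAD3 call of ADAM12 was lost under 5 of 14 other settings, with log2 changes of 0.65 to 2.495 and limma adjusted p up to 0.159. The receptors ERBB2 and ERBB4 moved apart in H3K27ac. ERBB2 covered 9.58 and 10.9 kb with vehicle and 8.08 and 8.78 kb with TGF-beta and fell by 0.35 on the log2 scale (limma adjusted p = 0.0288). ERBB4, a neuregulin receptor, covered 3.23 and 3.18 kb with vehicle and 4.35 and 4.87 kb with TGF-beta and rose by 0.38 (limma adjusted p = 0.0251). ERBB4 also rose in H3K9ac, from 1.32 and 1.28 kb to 1.55 and 2.07 kb (log2 change 0.44 ± 0.0898, limma adjusted p = 0.0247; 0.114 without TGF-beta replicate 2). The ERBB2 call in H3K27ac was ended by leaving out vehicle replicate 2 or either TGF-beta library, and that of ERBB4 by leaving out replicate 2 of either treatment. ERBB3, the other neuregulin receptor, did not pass in any target (H3K27ac log2 change -0.09, limma adjusted p = 0.530). EGF itself had no peak in any library.

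Among the inhibitors of receptor signalling, SPRY1 fell in H3K27ac and LRIG1 and ERRFI1 fell in H3K9ac. SPRY1 went from 2.83 and 2.78 kb to 1.54 and 1.75 kb (log2 change -0.71 ± 0.0895, limma adjusted p = 0.00215). LRIG1, a membrane protein that promotes breakdown of ERBB receptors, went from 4.28 and 4.01 kb to 2.101 and 2.073 kb (-0.75 ± 0.0811, 0.00193). ERRFI1, which binds and inhibits the EGFR kinase, went from 11.9 and 11.4 kb to 7.95 and 8.83 kb (-0.36 ± 0.0727, 0.0234), a call ended by leaving out vehicle replicate 2 or either TGF-beta library. RASA1, a RAS GTPase activator, rose in H3K27ac (log2 change 0.45, limma adjusted p = 0.00674; 0.0563 without TGF-beta replicate 2). STAT3, a transcription factor, fell in H3K9ac (log2 change -0.78, limma adjusted p = 0.00462) and in H3K27ac (-0.30, 0.0410), where the call was lost with any 1 library left out. ADAM19, a protease that processes neuregulins, rose in H3K9ac (0.39, 0.0248) and lost its call without vehicle replicate 1 or either TGF-beta library. The median log2 change over the pathway genes measured was 0.02 in SMAD3, -0.07 in H3K27ac and -0.0016 in H3K9ac, against -0.01, -0.03 and 0.00 over all genes.

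The genes most like each member over the 12 libraries were found by Euclidean distance between centred log2 lengths, among genes tested in all 3 targets and more than 1 Mb away. For EGFR they were PRR5L (distance 0.508) and ETS1 (0.530), where the median distance to all genes was 6.998. For NRG2 they were SLC1A1 (1.12) and CERS4 (1.22), with a median of 3.39, and for NRG1 SYN2 (0.904) and LAMA4 (0.930), with a median of 4.63. HBEGF was nearest to PPM1F (0.537) and PKD1 (0.578), AREG to NDFIP2 (0.568) and FUNDC2 (0.654), and TGFA to RWDD4 (0.428) and STON2 (0.453). The distance takes in the level as well as the change. SLC1A1 had log2 changes of -0.46, -1.05 and -0.40 in SMAD3, H3K27ac and H3K9ac, and NRG2 -0.21, -1.68 and -0.33.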

How the data were processed

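The members, the pathway and marker lists and the tests were chosen with earlier results of these data known. BWA, MACS2, Picard and bedtools are named, with the build hg38, per the submitters' processing notes. Their versions and the caller's cutoff were not given in the sources used here. Each library has 1 peak list that the authors deposited, with a score that is -log10 of the caller's p-value or q-value (which one is not stated). The smallest score was 2.00 to 2.04, and scores served only to rank and filter peaks within a library. The 4 input samples were not used. Windows of 10 kb around RefSeq spans (GRCh38.p14; no exons, so exon or intron is not given) were intersected with the peaks on chromosomes 1 to 22 and X. Length was analysed as log2(length + 500 bp), where the mean over a target's libraries reached 500 bp, with limma 3.58.1 in R 4.3.3, per target and with a treatment by mark term, after tests on simulated data. Regions are peaks of a target's 4 libraries merged at an overlap of 1 bp. Python 3.11.15, numpy 2.4.6, pandas 2.3.3 and matplotlib 3.10.9 were used. Named genes were the 9 members, up to 4 pathway genes passing in each direction per target with the largest change, and the 2 most similar genes per member. ADAM9, RHBDF1, IER3, SPRED3, ERBB3 and EGF were named after their values were seen. Values of 1 pathway gene and 1 marker gene are not reported here.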

Additional observations from a re-analysis of the deposited data

Results flagged for a closer look

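In 3 genes the effect of TGF-beta on peak length differed between H3K27ac and H3K9ac by limma's treatment by mark term, 0.74 on the log2 scale at HBEGF, 0.61 at NRG1 and -1.35 at NRG2 (limma adjusted p = 0.0122, 0.0169 and 0.00139). The term treated same-numbered libraries of the marks as independent, and whether they share cells is not stated. At HBEGF, H3K27ac was higher with TGF-beta and H3K9ac lower. At NRG1 the H3K27ac length rose while H3K9ac overlapped between treatments, and at NRG2 both marks were lower with TGF-beta, H3K27ac by more. The HBEGF value did not pass without TGF-beta replicate 2 of H3K27ac, which ran on lane 8. TGF-beta replicate 2 of H3K9ac also ran on lane 8 and stayed in that fit, so this is not a value within 1 lane. The NRG1 value did not pass without H3K27ac TGF-beta replicate 2, H3K9ac vehicle replicate 1 or H3K9ac TGF-beta replicate 1, while NRG2 passed with each library left out.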

How the results depend on the processing

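Of 28 tested results of the members, 11 passed, and 4 of these kept their call under every setting tried: EREG in H3K9ac, NRG1 and NRG2 in H3K27ac, and NRG2 between marks. Another 6 results passed only under another setting. With windows of 50 kb, genes passing numbered 2982 in SMAD3, 5990 in H3K27ac, 2283 in H3K9ac and 1662 between marks, and pathway genes 17 in H3K27ac and 11 in H3K9ac. With equal numbers of peaks the SMAD3 count was 715, with 3 pathway genes. Without centring, 1825 genes rose and 11 fell in SMAD3, 2507 and 880 in H3K27ac and 180 and 377 in H3K9ac (557 in all, 3 of the pathway), and between marks 1074 were larger in H3K27ac and 65 in H3K9ac. Pathway counts were 4 with a pseudocount of 100 bp and 5 with trend and robust options in SMAD3, and 15 with 2000 bp and 17 with those options in H3K27ac.

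Leaving out 1 library gave 792 to 1744 genes in SMAD3, 1980 to 3142 in H3K27ac, 730 to 1402 in H3K9ac and 522 to 966 between marks, and 3 to 9, 3 to 8 and 4 to 6 pathway genes in SMAD3, H3K27ac and H3K9ac. Over the same leave-one-out settings, regions of the members numbered 0 to 4 gained and 1 to 2 lost in SMAD3, 30 to 43 gained and 5 to 11 lost in H3K27ac, and 5 to 10 gained and 5 to 17 lost in H3K9ac. With a library left out, its group needs only 1 library to fit the definition, which by itself can raise these counts. Merging peaks less than 500 bp apart gave 12 gained and 1 lost region in H3K27ac and 2 lost in H3K9ac. Scores of at least 5 gave 1 lost in H3K27ac, equal numbers 2 lost in SMAD3, and windows of 50 kb 5 lost in H3K27ac and 8 in H3K9ac.

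IER3 in SMAD3, which passed, was at -0.059 with windows of 2.5 kb, and the cause was not tested. Uncalled values changed sign as follows: without centring, AREG (0.026), TGFA (0.21) and NRG2 (0.10) in SMAD3 and EGFR in H3K9ac (-0.026); EGFR in H3K9ac at scores of at least 5 (-0.013) and without TGF-beta replicate 2 (-0.026, with up to 0.15 over the libraries left out); NRG2 in SMAD3 without vehicle replicate 5 (0.014, and -0.42 without vehicle replicate 4); and TGFA between marks without H3K27ac vehicle replicate 2 (-0.0024), H3K27ac TGF-beta replicate 2 (-0.011) or H3K9ac vehicle replicate 1 (-0.10).

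The replicate number as a block gave 1409 genes in SMAD3, 3685 in H3K27ac, 1525 in H3K9ac and 765 between marks, and ended the calls of EGFR in SMAD3 (adjusted p = 0.0505) and TGFA in H3K27ac (0.0616). Same-numbered libraries deviated with correlations of -0.07, -0.02 and -0.14, so the numbers were not taken as pairs. Crossed numbers, an alternative chosen after seeing the data, gave 1433 genes in H3K9ac. Depth is unknown and limits which peaks could be called.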
